A study of Arabidopsis thaliana with 6 samples.

Results

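The Aux/IAA repressors and the auxin response factors (ARFs) are the transcriptional regulators of the auxin response in *Arabidopsis thaliana*, the thale cress. They were compared between wild-type seedlings and seedlings of the nup50c mutant. The set was given by locus and held 43 genes, 28 Aux/IAA and 15 ARF, of 30865 genes in the count table. Genes of these families outside the set were not examined, so counts and shares of a family below are of the listed genes. The members counted as measured had at least 10 counts in 3 or more libraries, and this left 25 Aux/IAA and all 15 ARF genes. The 3 Aux/IAA genes outside the rule were *IAA5*, *IAA20* and *IAA34*. The members were given by locus, but they were chosen with earlier results of these data known.

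Auxin acts through a short nuclear pathway. ARFs bind auxin response elements in promoters, and at low auxin Aux/IAA proteins bind the ARFs and recruit TOPLESS corepressors, which keeps the target genes off. Auxin joins an Aux/IAA protein to a receptor of the TIR1/AFB family, an F-box protein, and the Aux/IAA protein is then degraded. Many Aux/IAA genes are themselves induced by auxin, so their transcripts are widely read as a gauge of the response. Several ARF transcripts are cleaved under the guidance of small RNAs.

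Messenger RNA was sequenced from whole 9-day-old seedlings grown without treatment on 1/2 MS medium with 1% sucrose. The 6 libraries were 3 of the Col-0 wild type and 3 of nup50c, a mutant of a nuclear pore protein gene whose allele the labels do not name. The numbers in the mutant titles were read as replicates and could also name alleles. The labels do not say that replicates were grown apart, so each p-value rests on a spread among libraries that may be technical only.

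The libraries held 33273007 to 39574236 counts. *NUP50C*, taken as AT4G11790, stood at 35.7, 30.4 and 29.0 CPM (counts scaled to library size, TMM-normalized) in wild type, against 13.6, 10.01 and 10.3 in nup50c. The edgeR test called 2.28% of 21158 genes, 236 higher (1.12%) and 247 lower (1.17%) in nup50c. The nup50c replicate 3 library stood apart on the second principal component (-83.6, against -4.89 to 31.5 in the other libraries). Of the tissue markers, 9 of 9 root and 7 of 7 shoot genes were measured. Of the flower markers *AP1* and *AG* were at 0 throughout in both tables, *PI* had counts of 0 throughout but FPKM of 0.338 and 0.402 in 2 libraries, and *AP3* had 21 counts in 1 library, and of 3 seed storage genes in the table *CRA1* had 95 counts in 1 library.

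The small RNAs that act on this pathway are shown with their complementary stretches. Those that match ARFs set the ARF groups used below, while miR393 matches receptor genes, which are not grouped by it. The mature sequences come from the RefSeq annotation of TAIR10.1, with the seed (bases 2 to 8) in capitals, and lie at chr2:16340282-16340302 (miR160a), chr3:8108090-8108110 (miR167a) and chr2:16652111-16652132 (miR393a), each on the plus strand. The last sequence is the 21-base stretch of the *TAS3* transcript that a search found most complementary to *ARF2*, *ARF3* and *ARF4* together. *TAS3* is a noncoding RNA from which small interfering RNAs against these 3 genes are cut.
miR160a: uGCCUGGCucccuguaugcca
miR167a: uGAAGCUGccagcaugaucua
miR393a: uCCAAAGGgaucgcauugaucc
*TAS3* stretch: uuucuugaccuuguaagaccc

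In the target transcripts the best complementary stretch, read 5′ to 3′ along the mRNA from the TAIR10.1 genome, has the bases that match the small RNA in capitals.
*ARF10*, miR160: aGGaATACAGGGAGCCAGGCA
*ARF16*, miR160: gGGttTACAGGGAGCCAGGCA
*ARF17*, miR160: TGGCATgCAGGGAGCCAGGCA
*ARF6*, miR167: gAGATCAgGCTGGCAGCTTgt
*ARF8*, miR167: TAGATCAgGCTGGCAGCTTgt
*TIR1*, miR393: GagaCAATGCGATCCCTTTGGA
*AFB2*, miR393: GaAaCAATGCGATCCCTTTGGA
*ARF2*, *TAS3* stretch: GGGTCTTgCAAGGTCAAGAAt
*ARF3*, *TAS3* stretch: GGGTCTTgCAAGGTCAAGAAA

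These stretches are all in coding sequence. The one of *ARF10* lies at chr2:12115741-12115761 on the plus strand and matches miR160 at 19 of 21 bases, that of *ARF17* at chr1:29274189-29274209 on the plus strand at 20, and that of *ARF16* at chr4:14704141-14704161 on the minus strand at 18. *ARF6* (chr1:10686478-10686498, minus strand) matches miR167 at 17 of 21 bases and *ARF8* (chr5:14633841-14633861, plus strand) at 18. *TIR1* (chr3:23273727-23273748, minus strand) matches miR393 at 19 of 22 bases and *AFB2* (chr3:9870237-9870258, plus strand) at 20. *AFB3* has the same stretch as *AFB2*, and *AFB1* matches at 18 of 22 bases, while the best stretches of *AFB4* and *AFB5* match at 15 and 14. *ARF2* matches the *TAS3* stretch (chr3:5862205-5862225) at 19 of 21 bases, at chr5:24913262-24913282 on the plus strand. *ARF3* (chr2:14325941-14325961, minus strand) and *ARF4* (chr5:24309507-24309527, minus strand) carry the same 21 bases, match at 20, and each hold another stretch that matches at 19. A match describes the letters and does not show cleavage.

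Levels were compared between genes on the deposited FPKM, which divides by gene length. Of the 28 Aux/IAA genes, 14 had a mean of at least 10 FPKM over the 6 libraries, 5 lay between 1 and 10, and 9 lay below 1. *IAA9* was highest at 111 FPKM, followed by *IAA8* at 88.8, *IAA16* at 70.8 and *IAA7*, the AXR2 protein of auxin-resistant mutants, at 63.2. These 4 genes made up 56.9% of the summed FPKM of the family. *IAA16* and *IAA7* overlapped in their ranges over the libraries, and so did *IAA4* (40.1 FPKM) and *IAA2* (37.9), whereas *IAA9*, *IAA8* and the pair below them did not.

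Below *IAA17* (29.2 FPKM), neighbouring genes in the order overlapped from *IAA27* down to *IAA19* (3.61). *IAA3*, known as SHY2 and a regulator of root meristem size, was in this run at 19.9 FPKM, and *IAA12*, the BODENLOS partner of *ARF5* in the embryo, at 11.2. *IAA28*, whose stabilised form blocks lateral roots, stood at 13.5 FPKM and *IAA14*, the SOLITARY-ROOT repressor of lateral root initiation, at 5.19. *IAA20* and *IAA34* were listed at 0 in every library.

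The members next to the rule's limit had counts that came and went. *IAA6*, *IAA29* and *IAA31* each had counts in 3 libraries and were listed at 0 in the other 3, and *IAA5*, just outside, had 25 and 21 counts in 2 wild-type libraries and 0 in the other 4. A 0 can be a failed estimate in this table, where an FPKM above 0 stands beside 1001 of 57420 counts of 0. For these 4 genes both deposited tables gave 0 in the same libraries. *IAA29* had 33 counts in wild-type replicate 1, and 21 and 26 in nup50c replicates 2 and 3, so its presence did not follow the genotype.

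The ARFs were spread less widely. *ARF2*, a repressor of cell proliferation and organ size, was highest at 53.9 FPKM, *ARF1* followed at 24.5 and *ARF6* at 16.9, and the ranges of these 3 did not overlap. *ARF8* (12.8 FPKM), *ARF7* (12.7), *ARF3* (12.2) and *ARF4* (11.6) overlapped each with the next. *ARF5*, the MONOPTEROS activator of the embryonic axis, stood at 7.32 FPKM, and *ARF11* was lowest at 3.39. The 5 activator-class genes (*ARF5*, *ARF6*, *ARF7*, *ARF8* and *ARF19*) thus ranged from 4.65 FPKM in *ARF19* to 16.9 in *ARF6*.

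**Figure D1:**
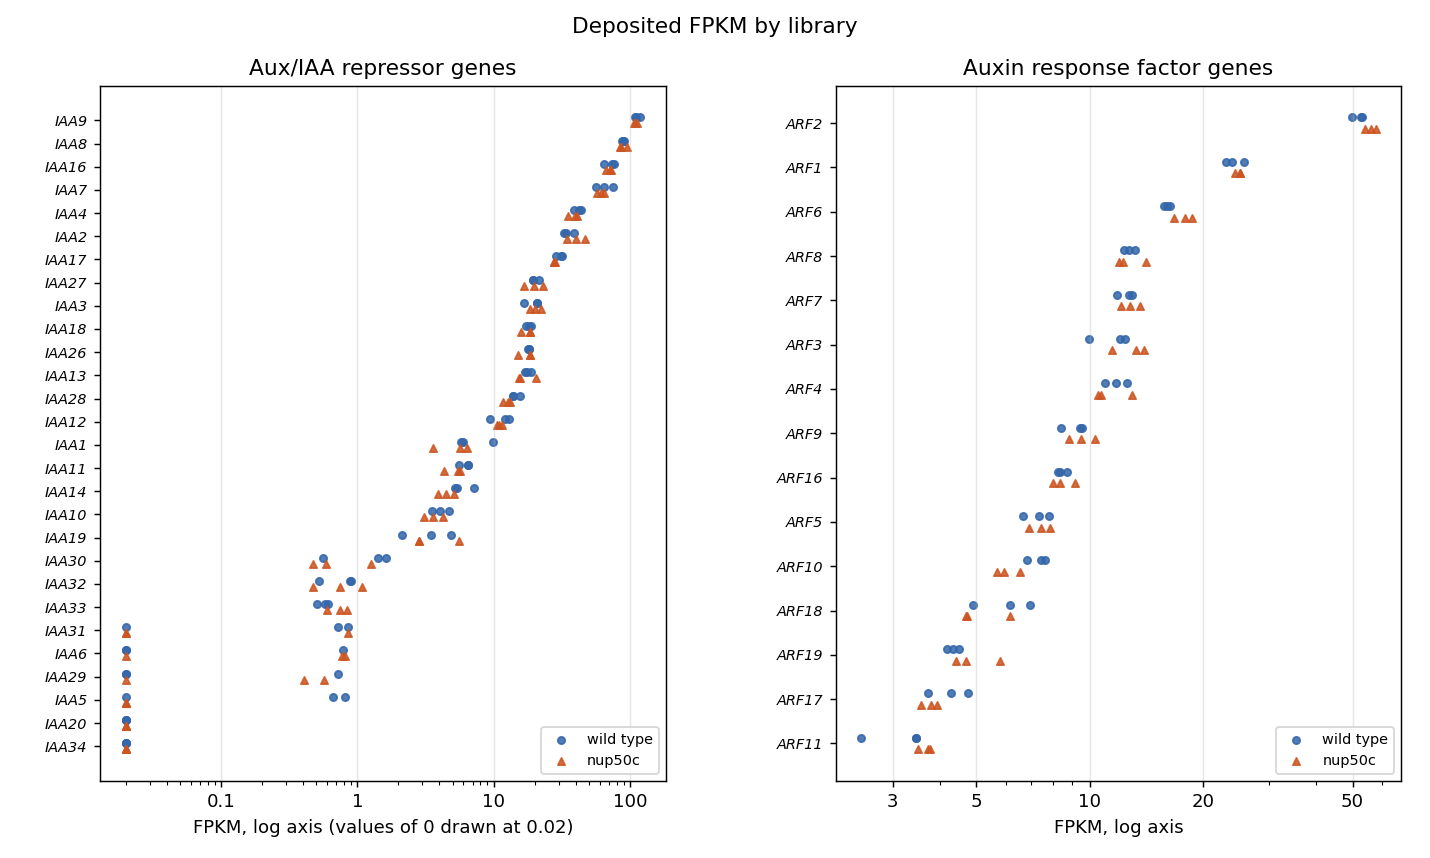
Deposited FPKM (log axis) of each Aux/IAA gene on the left and each ARF gene on the right, ordered by the mean, with circles for the 3 wild-type and triangles for the 3 nup50c libraries. *IAA9* leads at 111 FPKM and *ARF2* at 53.9, and *IAA20* and *IAA34* lie at 0 in all libraries.

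The comparison asked whether transcripts of these regulators differ between nup50c and wild-type seedlings. Neither family had a gene that passed the test: 0 of 25 Aux/IAA and 0 of 15 ARF genes were called by edgeR (quasi-likelihood test, p adjusted by Benjamini-Hochberg over all genes), against 2.28% of all genes tested. The smallest adjusted p was 0.327 (*IAA28*) among Aux/IAA and 0.246 (*ARF10*) among ARF genes. At an unadjusted p under 0.05 stood 0 Aux/IAA and 2 ARF genes, *ARF10* and *ARF3*, where 16.6% of all genes did. DESeq2 and limma on FPKM also called 0 members. DESeq2 put 1 ARF gene at an unadjusted p under 0.05, and 1 Aux/IAA gene, *IAA5*, which lies outside the rule.

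For the well-expressed members the intervals were narrow. In the 14 Aux/IAA genes with at least 10 FPKM, the 95% intervals of the log2 fold change ran from -0.46 to 0.33 at the extremes, so that changes beyond 1.38-fold lay outside each of them. Over the 15 ARF genes they ran from -0.63 to 0.59, or up to 1.55-fold. Each interval is for 1 gene, with no allowance for the number of genes. They rest on a spread among libraries that may be technical only, so they may be too narrow and do not bound the changes of a family. The interval of *IAA9* was -0.18 to 0.08 and that of *ARF2* -0.05 to 0.22. In the 6 tested Aux/IAA genes below 1 FPKM the intervals were wider, from -1.19 to 1.13 in *IAA32* to the extremes of -5.18 in *IAA31* and 5.32 in *IAA6*, which were each at 0 in 3 libraries. In bulk seedlings, fewer cells of a type and less RNA per cell cannot be told apart.

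**Figure D2:**
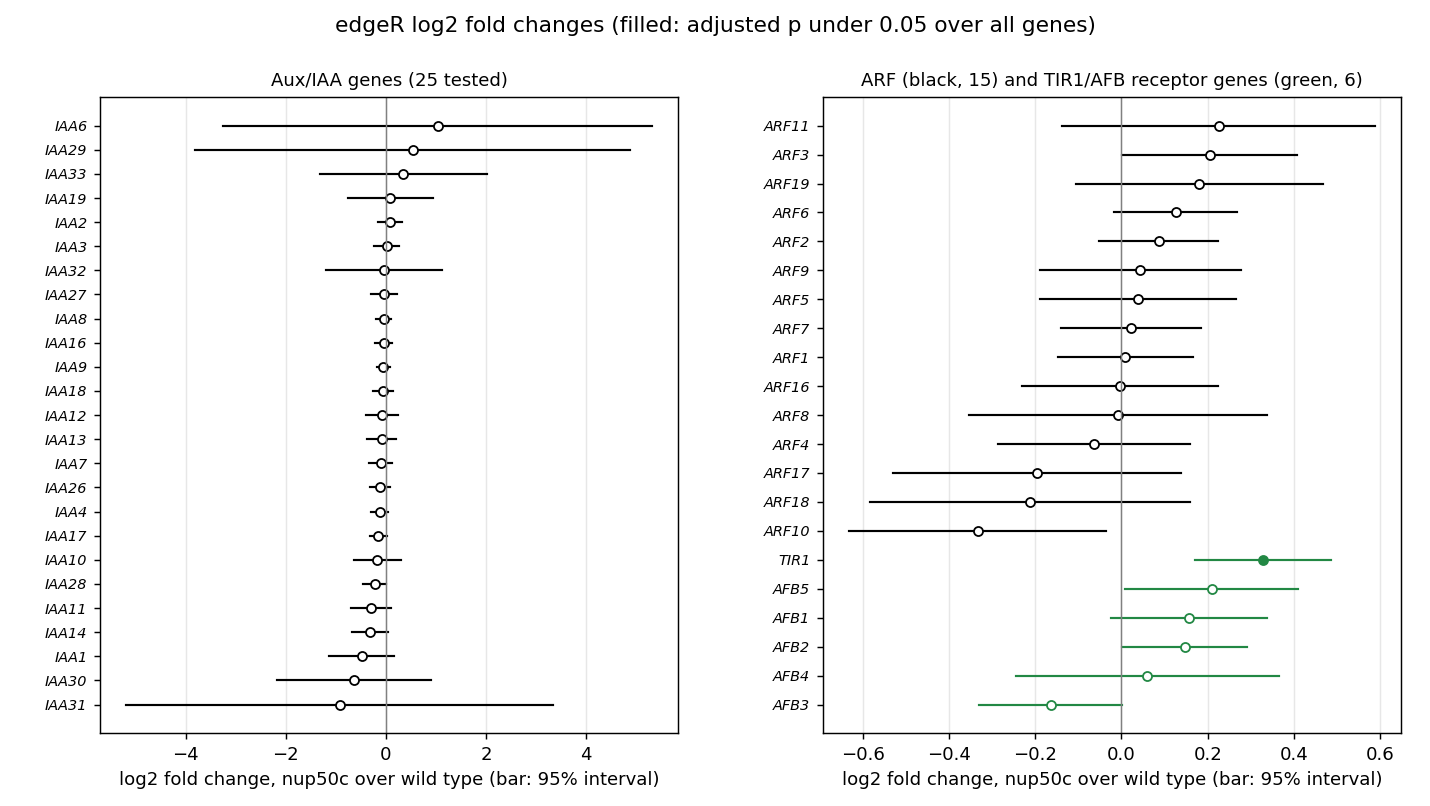
Fitted log2 fold changes (nup50c over wild type) with 95% intervals, for 25 Aux/IAA genes on the left and for 15 ARF and 6 receptor genes on the right, on axes of different width. Filled points passed the edgeR test over all genes, which among the genes drawn holds for *TIR1* alone, at 0.33.

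Small differences leaned one way in the Aux/IAA family. Of its 25 tested genes 19 had fitted log2 fold changes below 0 (76%) and 6 above, with a median of -0.07, while 50.5% of all genes tested lay below 0 with a median of -0.00. Among the 14 genes with at least 10 FPKM, 12 lay below 0. The summed CPM of the family was 1016 to 1071 in wild type, against 1001 to 1007 in nup50c, so the sums did not overlap. Summed on FPKM they did, at 569.7 to 612 in wild type against 575 to 582. Of the ARF genes 9 lay above 0 and 6 below, with a median of 0.02, and their summed CPM overlapped (655 to 709 in wild type, 682 to 719 in nup50c). Summed CPM of the shoot markers was 143 to 147 in wild type, against 151 to 180 in nup50c, and that of the root markers 106 to 115 and 105 to 109.7. The part of tissue makeup in these shifts was not tested.

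The 6 Aux/IAA genes with the smallest p all had values below 0. *IAA28* (AT5G25890, chromosome 5, 9033204 to 9035140) was measured at 23.8, 21.3 and 21.6 CPM in wild type, against 17.7, 19.8 and 19.7 in nup50c. Every mutant library thus lay below every wild-type library, with a log2 fold change of -0.22 (SE 0.10, edgeR adjusted p = 0.327). *IAA14* (AT4G14550, chromosome 4, 8347822 to 8350263) had 11.5, 9.83 and 9.54 CPM in wild type against 7.29, 9.48 and 8.07 in nup50c. Its groups did not overlap either, by a narrow margin (log2 fold change -0.31, SE 0.16, adjusted p = 0.380). *IAA17*, encoding the AXR3 protein (AT1G04250, chromosome 1, 1136078 to 1138663), had 45.5, 41.4 and 46.3 CPM in wild type against 39.7, 39.1 and 41.3. It was the last of the 3 Aux/IAA genes whose groups did not overlap, with a log2 fold change of -0.15 (SE 0.08, adjusted p = 0.387).

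All 3 were lower in nup50c, which is 12% of the tested family. Of all genes 11.6% were lower without overlap, and 23.4% did not overlap in either direction. No Aux/IAA gene was higher without overlap, against 11.7% of all genes.

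In the other 3 genes with the smallest p the groups overlapped. *IAA11* (AT4G28640, chromosome 4, 14142063 to 14143969) stood at 8.10, 6.93 and 7.95 CPM in wild type, against 5.23, 6.52 and 6.94 in nup50c, where replicate 3 reached the level of wild-type replicate 2 (log2 fold change -0.30, SE 0.18, adjusted p = 0.459). *IAA1*, an early auxin-induced gene (AT4G14560, chromosome 4, 8360996 to 8362033), had 10.3, 6.21 and 6.04 CPM in wild type, against 6.62, 3.65 and 5.89 in nup50c. Wild-type replicate 1 was well above the other libraries, and the log2 fold change of -0.48 had a wide error (SE 0.29, adjusted p = 0.460). *IAA4* (AT5G43700, chromosome 5, 17550179 to 17551715) had 63.6, 64.8 and 58.2 CPM against 58.6, 59.8 and 52.8, with a log2 fold change of -0.12 (SE 0.08, adjusted p = 0.491). Leaving out 1 library moved all 3 values, to -0.19 for *IAA11* without nup50c replicate 1, to -0.19 and -0.27 for *IAA1* without wild-type replicate 1 and nup50c replicate 2, and to -0.07 for *IAA4* without nup50c replicate 3.

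The 3 most abundant Aux/IAA genes had the smallest spreads of the 14 with at least 10 FPKM, while *IAA7*, the next in level, spread by 1.32-fold between the extreme libraries. *IAA9* (AT5G65670, chromosome 5, 26253408 to 26256544) had 231, 253 and 239.7 CPM in wild type, against 231, 236 and 233 in nup50c, a spread of 1.09-fold between the extreme libraries (log2 fold change -0.05, SE 0.06, adjusted p = 0.751). *IAA8* had 157, 153 and 160.0 CPM in wild type, against 164, 144 and 149 in nup50c (log2 fold change -0.04, SE 0.07, adjusted p = 0.830). *IAA16* had 170.2, 163 and 146 CPM against 147, 159 and 160.2 (log2 fold change -0.04, SE 0.07, adjusted p = 0.851). In none of these 3 did the libraries sort by genotype. The widest spread among members above 0 in all libraries was 3.44-fold, in *IAA30*.

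*IAA19*, the MASSUGU2 repressor of hypocotyl bending and a growth gene activated by PIF factors, varied more within the groups than between them. It had 5.40, 3.89 and 2.41 CPM in wild type, against 3.14, 3.09 and 6.23 in nup50c, highest in replicate 3. The touch and early stress genes were also highest in that library, at a summed 1780 CPM against 524 to 928 in the other 5 libraries. Whether the high value of *IAA19* there is tied to theirs was not tested.

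Among Aux/IAA genes 3 pairs stand side by side on a chromosome, each pair transcribed in opposite directions away from the other, with 0 protein-coding genes between. *IAA3* and *IAA17* on chromosome 1 are 6388 bases apart, *IAA2* and *IAA7* on chromosome 3 are 12510 apart, and *IAA14* and *IAA1* on chromosome 4 are 10732 apart. Members of a pair differed in level, for example *IAA7* at 63.2 and *IAA2* at 37.9 FPKM. Their log2 fold changes were 0.02 and -0.15 in the first pair, 0.08 and -0.11 in the second and -0.31 and -0.48 in the third. Both members had the same sign in the third pair alone.

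Auxin response elements were counted in the 250 bases before each annotated gene start, on both strands. The letters TGTCTC stood before 9 of 28 Aux/IAA genes (32.1%), 1 of 15 ARF genes (6.67%, *ARF3*) and 10.9% of 27443 protein-coding genes. The variant TGTCGG stood before 6 Aux/IAA (21.4%) and 2 ARF genes (13.3%, *ARF7* and *ARF19*), against 4.16% of all. *IAA1* and *IAA5* had both. The 9 genes with TGTCTC were *IAA1*, *IAA5*, *IAA6*, *IAA8*, *IAA19*, *IAA20*, *IAA30*, *IAA32* and *IAA34*, and 6 of these 9 had a mean below 1 FPKM, the exceptions being *IAA1*, *IAA8* and *IAA19*. The G-box CACGTG, bound by PIF and other bHLH factors, stood before 4 Aux/IAA genes including *IAA7* and *IAA19*, and before 0 ARF genes, which is 14.3% of the Aux/IAA genes against 6.49% of all.

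**Figure D3:**
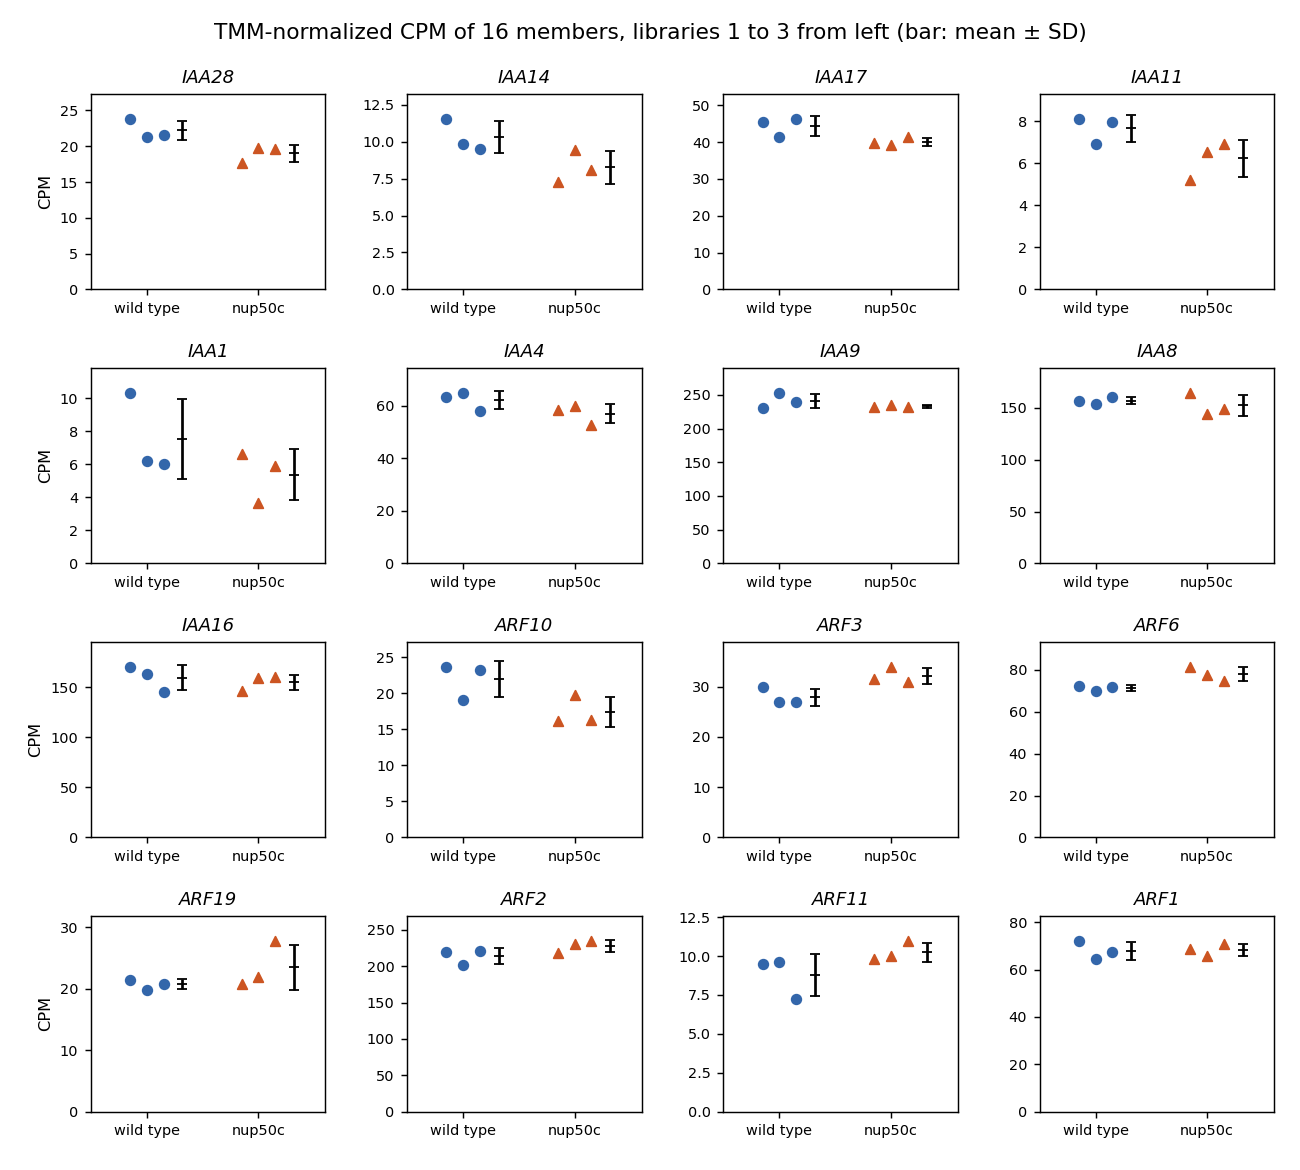
TMM-normalized CPM in each library for the 9 Aux/IAA and 7 ARF genes with the smallest p or the highest FPKM, with axes from 0 and bars for the mean and SD of 3 libraries. The groups lie apart for *IAA14*, *IAA17* and *IAA28*, lower in nup50c, and for *ARF3*, *ARF6* and *ARF11*, higher, and overlap in the rest.

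The repressor-class ARF genes are given by their small RNAs, and none of them passed the test. In the miR160 group, which acts in root cap and embryo development, *ARF10* had the smallest p. *ARF10* (AT2G28350, chromosome 2, 12113889 to 12116957) stood at 23.6, 19.0 and 23.2 CPM in wild type, against 16.2, 19.8 and 16.2 in nup50c. Only nup50c replicate 2 reached into the wild-type range (log2 fold change -0.33, SE 0.13, edgeR adjusted p = 0.246). On the deposited FPKM the groups of *ARF10* lay apart, at 7.64, 6.82 and 7.44 in wild type, against 5.92, 6.54 and 5.67 in nup50c. Fitted log2 fold changes were -0.19 in *ARF17* (AT1G77850, adjusted p = 0.582; -0.11 without wild-type replicate 3) and -0.00 in *ARF16* (AT4G30080, adjusted p = 0.992).

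Of the genes with a *TAS3* stretch, *ARF3*, the ETTIN regulator of organ polarity and the gynoecium (AT2G33860, chromosome 2, 14325206 to 14328978), was measured at 29.9, 26.8 and 26.9 CPM in wild type, against 31.5, 33.8 and 31.0 in nup50c. Every mutant library lay above the wild type, with a log2 fold change of 0.20 (SE 0.09, adjusted p = 0.298). On FPKM the groups of *ARF3* overlapped, at 12.1, 12.5 and 9.94 in wild type, against 13.3, 14.0 and 11.5 in nup50c. *ARF2* (AT5G62000, chromosome 5, 24910191 to 24915395) had 219, 202 and 222 CPM against 218, 230.3 and 234, a log2 fold change of 0.09 (SE 0.06, adjusted p = 0.549), and *ARF4* had one of -0.06 (adjusted p = 0.823).

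The *TAS3* transcript itself had a log2 fold change of -0.14 (SE 0.18, adjusted p = 0.776). Of the miRNA precursor genes for miR160, miR167, miR390 and miR393, 10 are in the count table, 5 of them at 0 throughout, and the highest count of any was 35. The mature small RNAs were not measured in these libraries.

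Of the activator class, 4 of 5 genes had log2 fold changes above 0. *ARF6* (AT1G30330, chromosome 1, 10685822 to 10690988), which acts with *ARF8* in flower maturation and like it has a miR167 stretch, stood at 72.4, 69.8 and 71.8 CPM in wild type, against 81.2, 77.6 and 74.6 in nup50c. Its groups did not overlap, on CPM or on FPKM, and the log2 fold change was 0.13 (SE 0.06, adjusted p = 0.369). *ARF8* had 43.4, 33.9 and 42.6 CPM against 31.5, 45.0 and 42.7, a log2 fold change of -0.01 (SE 0.15, adjusted p = 0.988). Among the activators it varied the most on CPM, and the libraries did not sort by genotype. On FPKM *ARF19* spread more for its level (4.17 to 5.78) than *ARF8* (12.0 to 14.1).

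*ARF19* and *ARF7* act together in lateral root formation. *ARF19* (AT1G19220, chromosome 1, 6627683 to 6633133) had 21.5, 19.8 and 20.8 CPM in wild type, against 20.8, 21.9 and 27.7 in nup50c. Its log2 fold change of 0.18 (SE 0.13, adjusted p = 0.545) came mainly with nup50c replicate 3, without which it was 0.04. *ARF7* had a log2 fold change of 0.02 (SE 0.07, adjusted p = 0.932) and *ARF5* of 0.04 (SE 0.10, adjusted p = 0.907).

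Of the remaining repressors, *ARF11* (AT2G46530, chromosome 2, 19104632 to 19108486) had 9.49, 9.61 and 7.23 CPM in wild type, against 9.79, 10.04 and 10.96 in nup50c. Its groups did not overlap (log2 fold change 0.23, SE 0.16, adjusted p = 0.553), and without wild-type replicate 3 the log2 fold change was 0.10. *ARF1* was even in both groups at 67.9 ± 3.86 and 68.3 ± 2.41 CPM (SD, n = 3 each), with an adjusted p of 0.971. The 3 ARF genes higher without overlap are 20% of those listed, against 11.7% of all genes, and 0 were lower without overlap, against 11.6%. In either direction 23.4% of all genes did not overlap.

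Upstream of these families, the receptor *TIR1* rose. It was measured at 88.01, 92.1 and 95.7 CPM in wild type, against 123, 116 and 108 in nup50c (chromosome 3, 23273065 to 23276630). All 3 mutant libraries lay above the wild type, by a log2 fold change of 0.33 (SE 0.07, edgeR adjusted p = 0.0485). It was the 1 of 6 receptor genes called, where 1.12% of all genes were called higher. *AFB5* (log2 fold change 0.21, adjusted p = 0.280), *AFB1* (0.16, 0.377), *AFB2* (0.15, 0.299) and *AFB4* (0.06, 0.888) were above 0 without passing, and *AFB3* was below (-0.16, 0.307). At an unadjusted p under 0.05 by edgeR stood 3 receptors, *TIR1*, *AFB5* and *AFB2*, where 16.6% of all genes did. *TIR1* and *AFB2* were higher without overlap (33.3%) and *AFB3* lower (16.7%), against 11.7% and 11.6% of all genes. In either direction 23.4% of all genes did not overlap. The summed CPM of the 6 receptors was 346 to 376 in wild type, against 380 to 415 in nup50c.

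On counts simulated with the spread fitted to these data, the edgeR test called more unchanged genes than its threshold implies. This bears on all its calls given here. The call of *TIR1* also sat at the threshold. Leaving out a library lost it without wild-type replicate 1 (adjusted p = 0.207), 2 (0.162) or 3 (0.0784) and without nup50c replicate 1 (0.125) or 2 (0.153), and kept it without nup50c replicate 3 (0.0324). It was also lost with upper-quartile scaling (0.0650) and in the 3 settings on FPKM (0.0542 to 0.0621). The log2 fold change stayed between 0.28 and 0.38 in all settings run.

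Other lists of the pathway gave 0 calls. None of the 5 TOPLESS corepressor genes passed (smallest p for *TPL*, log2 fold change 0.13, adjusted p = 0.285), with a list median of 0.04. Of 12 auxin transport genes 11 were tested and 0 called, with a median of 0.07 and the smallest p for the influx carrier *LAX1* (0.20, adjusted p = 0.425), which was at 0.07 without nup50c replicate 3 and 0.30 without nup50c replicate 1. At an unadjusted p under 0.05 stood 1 corepressor gene and 0 transport genes by edgeR. Of the small RNA list, 7 of 16 genes were tested and 0 called. Its smallest p belonged to *RDR6*, the RNA polymerase of the *TAS3* pathway, at 0.19 (adjusted p = 0.267), which was also its 1 gene at an unadjusted p under 0.05.

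Genes induced by auxin gave a readout downstream of the ARFs. Of 19 listed genes 14 were tested, 0 were called, 9 lay below 0 and 5 above, with a median of -0.09, and 3 (21.4%) had an unadjusted p under 0.05, against 16.6% of all genes. *GH3.3*, which conjugates auxin to amino acids, went from 13.6, 17.3 and 13.4 CPM in wild type to 9.00, 9.56 and 10.4 in nup50c. Its groups lay apart, with a log2 fold change of -0.61 (SE 0.15, adjusted p = 0.0719). It passed in 2 of 15 alternatives, with DESeq2 (adjusted p = 0.0355) and where each library had to reach 10 counts (0.0436). It did not pass in the other 13, among them every fit without 1 library (0.0826 to 0.229) and the fits on FPKM (0.0876 to 0.0965). In all 3 genes of the list (21.4%) were lower without overlap and 0 higher, against 11.6% and 11.7% of all genes. In either direction 23.4% of all genes did not overlap. Beside *GH3.3* the genes lower without overlap, named after their values were seen, were the growth genes *SAUR16* (-0.72, adjusted p = 0.0764) and *SAUR63* (-0.76, 0.154). SAUR genes have close copies, between which reads can be split in counting.

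Clock genes moved between the same groups. *CCA1* (log2 fold change -1.50, adjusted p = 0.000833) and *LHY* (-1.60, 0.00208) fell and *TOC1* (0.71, 0.00951) and *ELF3* (0.70, 0.00299) rose, 4 of the 10 clock genes listed, where 2.28% of all genes were called. Of 8 tested PIF and shade genes *PIF5* fell (-0.71, adjusted p = 0.0154). Leaving out wild-type replicate 1 (adjusted p = 0.0927) or 2 (0.0577), or nup50c replicate 2 (0.0808), ended the call of *PIF5*. Of the touch and early stress list 10 of 10 genes lay above 0, where 10472 of 21158 genes tested did. The lowest was *TCH3* at 0.02, and 0 were called by edgeR. At an unadjusted p under 0.05 stood 3, against 16.6% of all genes, with the smallest p for *ERF104* (1.04, adjusted p = 0.0816). *ERF104* passed in 3 of 15 alternatives. In the list 4 genes (40%) were higher without overlap and 0 lower, against 11.7% and 11.6% of all genes. In either direction 23.4% of all genes did not overlap. Several auxin genes follow the time of day, the labels state no harvest time, and the part of time of day in the values above was not tested.

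**Figure D4:**
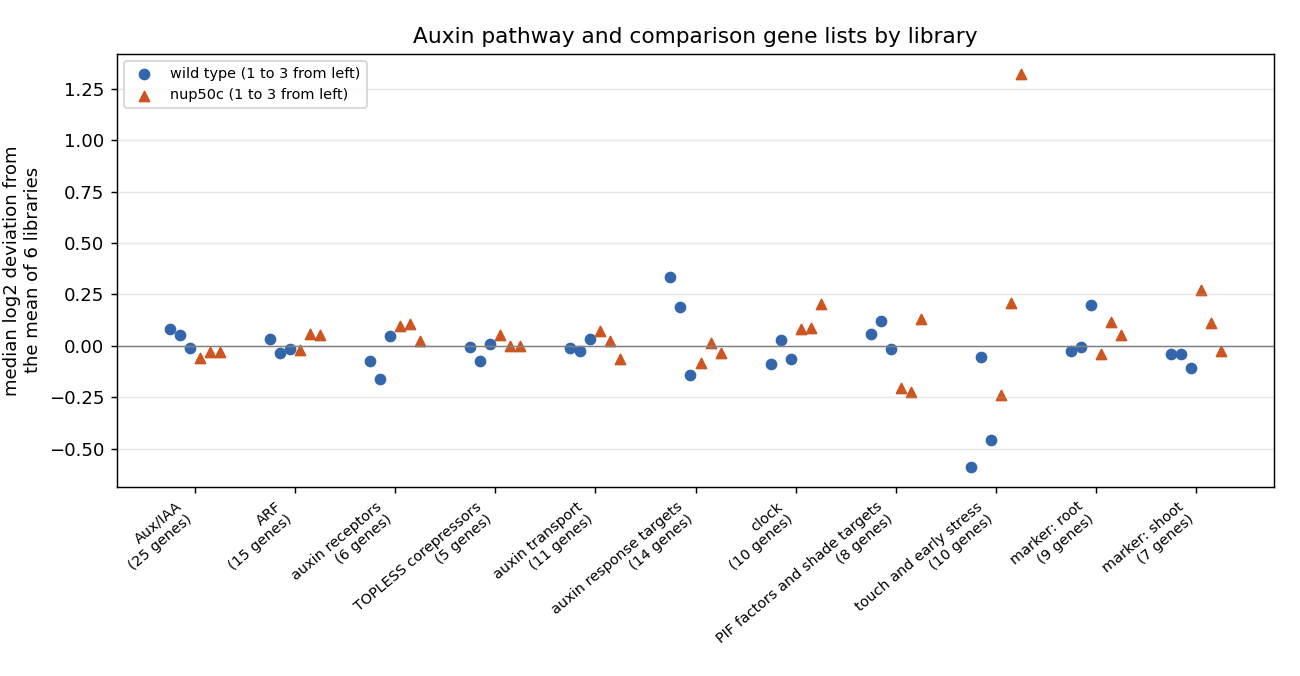
Median log2 deviation from the mean of 6 libraries for each gene list, with circles for wild-type and triangles for nup50c libraries, replicates 1 to 3 from left. The 2 families lie between -0.06 and 0.08 in every library, while the touch and early stress list reaches 1.32 in nup50c replicate 3.

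The libraries kept strand, but whether the counting used it is unstated in the sources used here. Reads of overlapping genes on opposite strands may therefore be mixed in the counts. In TAIR10.1 8 of 28 Aux/IAA genes, among them *IAA3*, *IAA9*, *IAA11* and *IAA13*, and 3 of 15 ARF genes, *ARF1*, *ARF5* and *ARF7*, overlap a gene on the other strand. *TIR1* overlaps none. Sharing of reads by the listed members is small by sequence. Of the 50-base words of each listed member's longest transcript, *IAA13* had 0.452% that recur in the nuclear genome, and the other 42 had 0. Family genes outside the set were not searched for such words.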

How the data were processed

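The submitters deposited 2 tables of the 6 libraries, whole-number counts per gene (30865 genes) and FPKM. HISAT2 2.0.4, HTSeq 0.6.1p1 and TAIR10 are listed, without roles, per the submitters' processing notes. Libraries kept strand, per the labels' protocols. Not given in the sources used here are the program behind the deposited counts, its strand setting and the total that scaled the FPKM. Counts were tested as deposited in R 4.3.3 with edgeR 4.0.16 (filterByExpr, TMM, robust quasi-likelihood F test, no covariate), with Benjamini-Hochberg adjustment over 21158 genes and calls under 0.05. Standard errors and 95% intervals of log2 fold changes were derived from the moderated F. Alternatives used DESeq2 1.42.0 and limma 3.58.1 on log2(FPKM + 0.1) and log2(FPKM + 1). On simulated counts the edgeR test recovered the larger folds put in more often than the smaller, most of which it missed, and called more unchanged genes than its threshold implies. Library totals were 33273007 to 39574236 counts. No library was a duplicate of another (chi-square per gene of 14.7 to 30.1 within groups).

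Members and lists were chosen with earlier results of these data known. Named members are those called, the 6 with the smallest p and the 3 with the highest mean FPKM of each family; in other lists, called genes and the smallest p. Other members were named for their levels, class, small RNA or neighbours. Sequences, positions and motifs were read from the RefSeq TAIR10.1 genome and annotation, matched by locus; no coordinate came from the deposited tables. Protein sequences were not used here.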

Additional observations from a re-analysis of the deposited data

How the results depend on the processing

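No listed Aux/IAA or ARF gene was called in any of the 15 alternatives run. The lowest adjusted p over them was 0.114 (DESeq2), for *IAA5*, which lies outside the rule and had counts in 2 libraries. Among the members that passed the rule it was 0.199, for *ARF10* in edgeR where each library had to reach 10 counts. The Aux/IAA median stayed below 0, from -0.11 to -0.04. The ARF median ran from -0.020 (without wild-type replicate 2) to 0.051 when single libraries were left out. The cause of these and the following moves was not tested. The number of genes called higher in nup50c was 394, and of genes called lower in nup50c 378, where each library had to reach 10 counts, and 662 and 616 with DESeq2. Leaving out single libraries gave 43 to 172 higher and 65 to 266 lower. The replicate block gave 12 and 19, and took *TIR1* to an adjusted p of 0.206, *TOC1* to 0.0660 and *PIF5* to 0.116. Same-numbered libraries showed no sign of pairing (correlations of deviations -0.03, -0.12 and -0.10), and differently numbered ones gave -0.02 to 0.12. No library correlated best with its own number. Deviations within such small groups offset each other, so these correlations cannot exclude a growth or harvest batch shared by same-numbered libraries. The labels do not state whether there was such a batch.

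Members near 0 changed sign when single libraries were left out, none of them called. Their log2 fold changes then ran from -0.025 to 0.15 for *IAA2*, -0.063 to 0.087 for *IAA3*, -0.20 to 0.0016 for *IAA7*, -0.20 to 0.020 for *IAA12*, -0.10 to 0.0050 for *IAA16*, -0.085 to 0.0084 for *IAA18*, -0.32 to 0.39 for *IAA19*, -0.15 to 0.065 for *IAA27*, -0.15 to 7.04 for *IAA29*, -0.36 to 0.23 for *IAA32*, -0.027 to 0.051 for *ARF1*, -0.027 to 0.11 for *ARF5*, -0.020 to 0.050 for *ARF7*, -0.11 to 0.14 for *ARF8*, -0.036 to 0.11 for *ARF9*, -0.073 to 0.045 for *ARF16* and -0.049 to 0.14 for *AFB4*. On FPKM *ARF16* was at 0.0100 with a pseudocount of 0.1, filtered or not, and 0.0092 with 1. *IAA6*, *IAA29* and *IAA31*, with a 0 in some library, gave no value where each library had to reach 10 counts. The Aux/IAA genes below 1 FPKM had low counts or counts of 0, which limits what could be detected there. Over all genes, 40 deposited counts were 1, against 57420 at 0, and what sets the zeros was not tested.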

Other observations

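The 2 deposited scales did not keep a constant ratio within a gene. Over 19959 genes above 0 in all libraries, the ratio of CPM to FPKM differed between the extreme libraries by a median of 1.03-fold, and by a median of 1.04-fold over 37 members. *ARF8* differed most among the members, by 1.68-fold. Its CPM per FPKM was 3.28, 2.74 and 3.34 in wild type, against 2.23, 3.76 and 3.48 in nup50c, lowest in nup50c replicate 1. Its CPM in that library, 31.5, was the lowest of the 6 while its FPKM, 14.1, was the highest, so the order of the libraries depended on the table read. *ARF3* differed by 1.26-fold and *IAA14* by 1.18-fold. What sets these ratios was not tested.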
